A study of Mus musculus with 18 samples.

Results

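The genes described here are 41 genes of the G2 and M phases of the cell cycle, which encode the cyclins, kinases, kinetochore proteins, motors and cytokinesis factors of cell division. They were found by gene symbol, each through the probe set that carries that single symbol, and 40 of the 41 were measured. Each of the 40 had 1 such probe set and passed the filter on low values, so 40 of the 19016 genes tested are members. Ccnb1, the gene of cyclin B1, had no probe set with a single symbol and has no value here.

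Total RNA of cultured mouse neurospheres, which are floating clusters of neural stem and progenitor cells, was measured on 18 arrays in 6 groups of 3. Mosaic, knockout and wild type cultures were each taken after 4 days of differentiation and at day 0, as undifferentiated neurospheres. Knockout cells lack Pcdh19, an X-linked gene for a protocadherin of cell to cell adhesion, wild type cells carry it, and mosaic cultures are a mixture of both kinds of cell. All cells are labelled as female. The replicates are described as technical, with no separate animals or cultures behind them in the labels, so p-values measure only the spread between these arrays. The deletion allele, the share of knockout cells in a mosaic culture and the differentiation medium are not known here. Values are normalized expression in log2 units, a scale inferred from their range, and the number of arrays limits the precision.

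Pcdh19 itself had log2 values of 6.54, 7.09 and 5.52 in mosaic, 5.7, 5.53 and 5.86 in knockout and 6.9, 6.98 and 6.81 in wild type cultures at day 4, and of 6.03, 6.31 and 5.65 in mosaic, 5.39, 5.46 and 5.68 in knockout and 6.85, 6.83 and 6.66 in wild type neurospheres at day 0. All knockout arrays lay below all wild type arrays on both days. Pcdh19 was among the genes tested, yet no gene was called between knockout and wild type at either day. Mosaic replicate 3 lay within or below the knockout values on both days, whereas mosaic replicates 1 and 2 lay above them. The main medians and counts that rest on the mosaic group at day 4 are also given without the day 4 array of replicate 3. The changes of single genes are given with it.

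Of the cell type markers, the 12 neural stem and progenitor genes gave a mean log2 level of 9.20 to 9.37 on day 4 arrays and 9.84 to 9.98 on day 0 arrays, and 6 of them fell in each genotype while 2, 3 and 2 rose in mosaic, knockout and wild type cultures. All 9 oligodendrocyte markers tested rose in each genotype, with mean levels of 9.01 to 9.69 at day 4 and 5.73 to 6.22 at day 0. Neuronal markers rose in 7 of 10 cases in each genotype, and 1, Elavl4, fell in mosaic and wild type cultures (-0.44, -0.28 and -0.51 in mosaic, knockout and wild type cultures). Astrocyte markers rose in 6 of 8 cases, and 2 fell in each genotype, Gfap (-1.11, -1.2 and -1.68) and Aldh1l1 (-0.55, -0.57 and -0.59). The 7 microglial markers tested stayed at a mean of 4.58 to 4.85 at day 4 and 4.48 to 4.81 at day 0, near the array medians of 4.85 to 4.99. All 6 stress genes, immediate early genes among them, fell in each genotype, with medians of -3.13, -3.05 and -2.73 in mosaic, knockout and wild type cultures. Without mosaic day 4 replicate 3, 8 neuronal markers rose and 0 fell in mosaic cultures, so Elavl4 was no longer called there. The mosaic median of the stress genes was then -3.21, and the mosaic counts of the other marker lists given here stayed the same. Of all genes 10.6% were then called lower and 12.6% higher. The part of these marker changes in the results below was not tested.

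Cells that are about to divide switch on the G2 and M genes together. The MuvB complex, joined by B-Myb and FoxM1, activates many of them late in the cycle, and in resting cells MuvB sits in the DREAM complex, with E2F4 and p130 or p107, and represses them. MuvB binds a short promoter element called the CHR, and a CCAAT box bound by NF-Y often lies a few helical turns upstream of it. The proteins condense chromosomes, build the spindle, attach kinetochores to microtubules and cut the daughter cells apart, after which many of them are degraded. In neural tissue these transcripts mark dividing stem and progenitor cells and are low in neurons and in myelinating oligodendrocytes.

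Every measured mitosis gene fell over differentiation in every genotype. At day 4 against day 0, 40 of 40 were called lower in mosaic, 40 of 40 in knockout and 40 of 40 in wild type cultures (limma, adjusted p under 0.05), where 11.9%, 12.4% and 16.3% of all genes tested were called lower. Their adjusted p in limma ran from 1.76e-09 to 0.000815 in mosaic, 2.03e-10 to 0.00014 in knockout and 3.12e-10 to 0.000191 in wild type cultures. The median log2 fold change of the 40 was -2.05, -2.38 and -2.19 in mosaic, knockout and wild type cultures, beside 0.016, 0.023 and 0.087 for all genes. The fall was at least 2-fold and called for 39, 40 and 40 of the 40, against 2.35%, 2.47% and 2.79% of all genes. Within each genotype every day 4 array lay below every day 0 array for all 40 genes, while 17.8%, 17.1% and 21.9% of all genes parted in this way. Across genotypes too, the highest of the 9 day 4 arrays stayed below the lowest of the 9 day 0 arrays for each gene. The share of all genes that parted across genotypes was not counted. Without mosaic day 4 replicate 3 all 40 were still called lower in mosaic cultures, with a median of -2.32, beside 10.6% of all genes. Single genes then moved by -0.41 to -0.14 on the log2 scale. The medians by role then lay between -2.64 and -2.05, where the 3 mosaic arrays together gave -2.4 to -1.85. In RNA from whole cultures, fewer dividing cells and less RNA per dividing cell cannot be told apart.

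**Figure D1:**
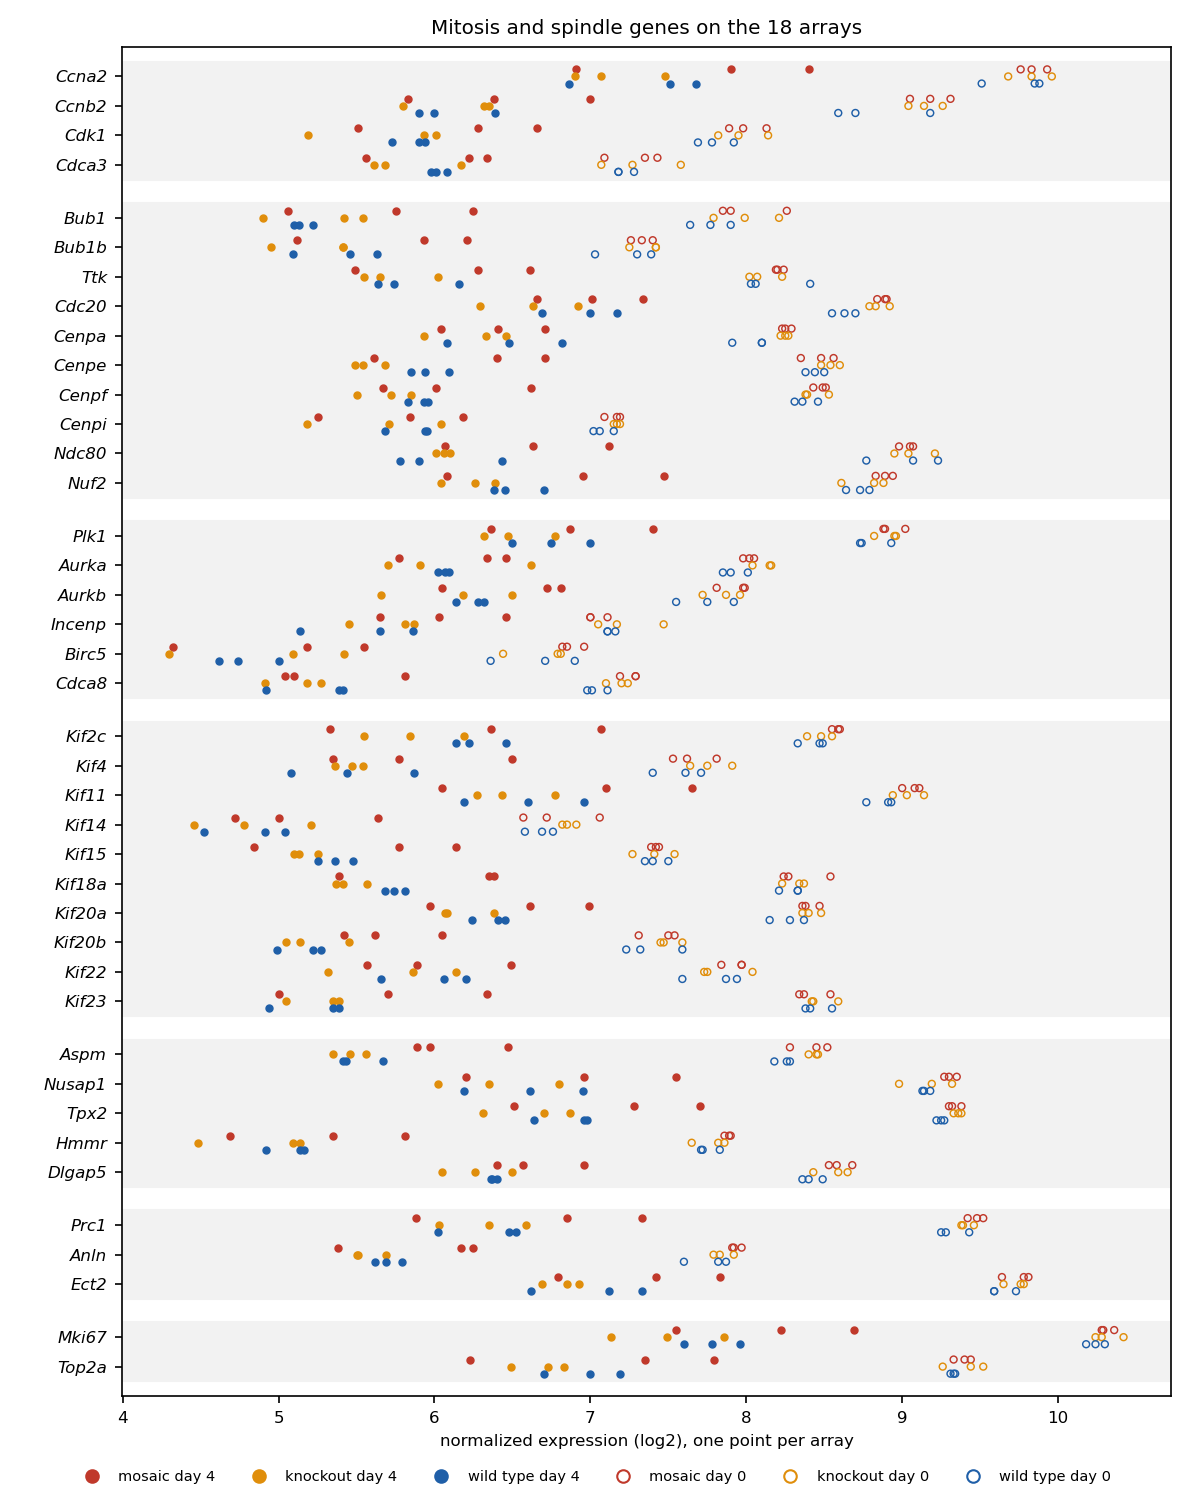
Normalized expression (log2, horizontal axis) of the 40 measured genes (rows, grouped by role) with 1 point per array, filled for day 4 and open for day 0, coloured by genotype. For each gene all 9 day 4 arrays lie left of all 9 day 0 arrays, and the red mosaic points of day 4 spread the most.

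The start regions of these genes share short sequence elements, and 6 are shown as examples of how a CHR and CCAAT boxes lie around the start. These 6 were taken from the genes with values given array by array and a single window with both elements. The genes with the most matches in the stretch shown came first. Kif23, Cdca3 and Mki67 tied for the last place with 2 matches each, and Kif23 was taken for its larger mean fall. RefSeq windows of 300 bases (250 before and 50 after the annotated start, GRCm38.p6) were at hand for 35 of the 41 genes. Ccna2, Aurkb, Incenp, Kif20a, Tpx2 and Dlgap5 had none. Letters were searched on both strands for the CHR forms TTTGAA and TTCGAA, the CCAAT box CCAAT, and the E2F-like forms TTCCCGC and TTGGCGC, and 3 pairs of matches overlapped. Prc1 and Ect2 have 2 overlapping windows each, which makes 37 windows. Each line below runs 5′ to 3′ from 100 bases before to 20 bases after the start, in the direction of transcription, and capitals mark the matches (ATTGG is CCAAT and TTCAAA is TTTGAA on the other strand).
Ccnb2: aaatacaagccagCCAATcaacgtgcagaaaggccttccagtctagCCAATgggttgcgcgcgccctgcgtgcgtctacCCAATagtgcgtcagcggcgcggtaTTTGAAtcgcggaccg
Hmmr: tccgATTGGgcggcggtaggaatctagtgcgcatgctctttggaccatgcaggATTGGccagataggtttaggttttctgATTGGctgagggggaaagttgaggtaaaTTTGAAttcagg
Top2a: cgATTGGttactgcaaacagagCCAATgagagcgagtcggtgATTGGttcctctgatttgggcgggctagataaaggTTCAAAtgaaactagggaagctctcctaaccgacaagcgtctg
Cdca8: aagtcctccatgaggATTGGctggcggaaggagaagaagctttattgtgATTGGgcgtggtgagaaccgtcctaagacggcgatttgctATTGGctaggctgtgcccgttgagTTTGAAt
Aspm: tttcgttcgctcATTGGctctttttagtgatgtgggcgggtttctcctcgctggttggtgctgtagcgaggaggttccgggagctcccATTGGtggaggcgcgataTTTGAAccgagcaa
Kif23: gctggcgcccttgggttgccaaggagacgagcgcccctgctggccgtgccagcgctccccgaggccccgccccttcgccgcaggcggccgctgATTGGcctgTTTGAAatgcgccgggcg

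In GRCm38.p6 these stretches are chr9:70421535-70421654 (minus strand) for Ccnb2, chr11:40733418-40733537 (minus strand) for Hmmr, chr11:99024170-99024289 (minus strand) for Top2a, chr4:124936898-124937017 (minus strand) for Cdca8, chr1:139454673-139454792 (plus strand) for Aspm and chr9:61946780-61946899 (minus strand) for Kif23. In the stretch of Ccnb2 3 CCAAT boxes precede a CHR that begins 5 bases after the start, and Hmmr has 3 before a CHR at base 9. Cdca8 has 3 before its CHR at base 14 and a further CCAAT box at base 19, which overlaps it and runs past the stretch shown. In Aspm 2 precede a CHR at base 7. Top2a has its only CHR of this stretch on the other strand, 23 bases before the start, with 3 others further upstream, and Kif23 has a single CCAAT box directly before a CHR at base 3. A CHR form was in 28 of 35 windows of mitosis genes (80%), against 21.7% of 27025 genes with a window. A CCAAT box was in 26 (74.3%, against 41.1%), and both were in 23 (65.7%, against 9.65%). The E2F-like forms were in 6 (17.1%, against 7.79%). With sites in overlapping windows counted once, 27 of 40 CHR sites had their centre within 50 bases of an annotated start. The same share over all genes with a window was not counted. Nuf2, Birc5 and Nusap1 held none of the 5 forms in this window. These are matches of letters, with no measurement of binding.

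**Figure D2:**
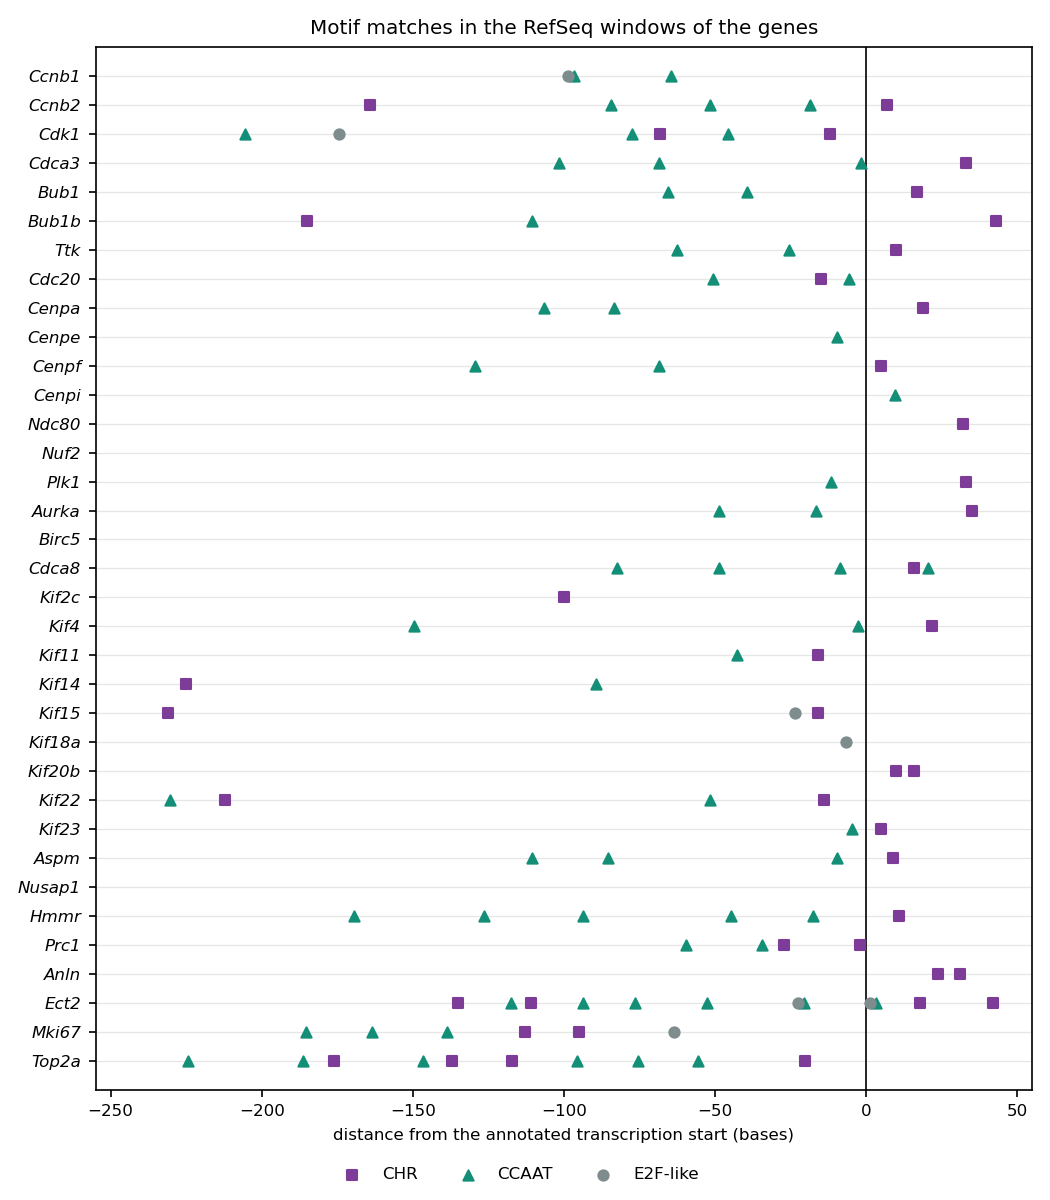
Position of each motif match (horizontal axis, bases from the annotated transcription start, vertical line at 0) in the RefSeq windows of 35 genes (rows). Prc1 and Ect2 have 2 overlapping windows drawn on 1 row, so their sites appear at 2 distances. Purple squares are CHR forms, green triangles CCAAT boxes and grey circles E2F-like forms, and CHR matches gather around the start with CCAAT boxes to their left.

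The genes that bring cells into mitosis are the cyclins Ccna2 and Ccnb2, their kinase Cdk1, and Cdca3, which helps to remove the Cdk1 inhibitor Wee1. All 4 measured ones fell in each genotype, with median log2 fold changes of -1.98, -2.47 and -2.17 in mosaic, knockout and wild type cultures. Ccnb2, cyclin B2, measured 5.83, 6.38 and 7.0 in mosaic, 5.8, 6.35 and 6.32 in knockout and 6.0, 5.9 and 6.39 in wild type cultures at day 4. At day 0 its log2 values were 9.05, 9.18 and 9.31 in mosaic, 9.04, 9.26 and 9.14 in knockout and 8.7, 8.59 and 9.18 in wild type neurospheres. Its log2 fold changes, -2.78 ± 0.23 in mosaic, -2.99 ± 0.23 in knockout and -2.73 ± 0.23 in wild type cultures (SE, n = 3 per group), were the largest falls of the 4 in each genotype. Ccna2, cyclin A2 of S phase and G2, had 6.91, 7.9 and 8.4 in mosaic, 6.9, 7.07 and 7.48 in knockout and 6.86, 7.51 and 7.68 in wild type cultures at day 4. At day 0 Ccna2 had 9.76, 9.93 and 9.83 in mosaic, 9.96, 9.83 and 9.68 in knockout and 9.51, 9.88 and 9.85 in wild type neurospheres. Mosaic replicates 2 and 3 were the highest of its 9 day 4 arrays. Cdca3 measured 5.56, 6.22 and 6.34 in mosaic, 6.17, 5.61 and 5.68 in knockout and 6.08, 5.98 and 6.01 in wild type cultures at day 4. At day 0 Cdca3 had 7.43, 7.35 and 7.09 in mosaic, 7.27, 7.58 and 7.07 in knockout and 7.28, 7.18 and 7.18 in wild type neurospheres. Its log2 fold changes, -1.25 ± 0.18 in mosaic, -1.49 ± 0.18 in knockout and -1.19 ± 0.18 in wild type cultures, were the smallest falls of the 4. For Cdk1 the log2 fold changes were -1.85, -2.26 and -1.94.

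Kinetochore and checkpoint genes build the attachment between chromosome and spindle and hold cells in mitosis until it is complete. All 10 fell in each genotype, with median log2 fold changes of -2.07, -2.46 and -2.27 in mosaic, knockout and wild type cultures. Ndc80, whose product binds microtubules at the kinetochore, measured 6.07, 6.63 and 7.12 in mosaic, 6.1, 6.01 and 6.06 in knockout and 5.78, 5.9 and 6.43 in wild type cultures at day 4. At day 0 it had 9.05, 9.07 and 8.98 in mosaic, 9.21, 8.95 and 9.04 in knockout and 8.77, 9.07 and 9.23 in wild type neurospheres. The log2 fold changes were -2.42 ± 0.21 in mosaic, -3.01 ± 0.21 in knockout and -2.99 ± 0.21 in wild type cultures (SE, n = 3 per group), the largest falls of the 10. Cenpe, a kinesin that carries chromosomes to the spindle equator, had 5.61, 6.4 and 6.71 in mosaic, 5.49, 5.54 and 5.68 in knockout and 5.85, 6.09 and 5.94 in wild type cultures at day 4. At day 0 Cenpe had 8.48, 8.56 and 8.35 in mosaic, 8.6, 8.54 and 8.48 in knockout and 8.44, 8.38 and 8.5 in wild type neurospheres. Its 3 knockout arrays at day 4 all lay below its 3 wild type arrays. Cenpi, a protein of the inner kinetochore, fell the least, with log2 fold changes of -1.39 ± 0.2 in mosaic, -1.52 ± 0.2 in knockout and -1.22 ± 0.2 in wild type cultures. Its arrays read 5.25, 5.84 and 6.18 in mosaic, 5.18, 6.04 and 5.71 in knockout and 5.68, 5.94 and 5.95 in wild type cultures at day 4. At day 0 Cenpi had 7.19, 7.17 and 7.09 in mosaic, 7.17, 7.15 and 7.19 in knockout and 7.06, 7.15 and 7.02 in wild type neurospheres. The partner of Ndc80, Nuf2, changed by -2.05, -2.54 and -2.21 in mosaic, knockout and wild type cultures. Checkpoint genes Bub1, Bub1b and Ttk, all of kinases or kinase-like proteins, had log2 fold changes between -2.71 and -1.58. Cdc20, which activates the anaphase promoting complex, changed by -1.87, -2.23 and -1.68. Cenpa, the centromeric histone, changed by -1.87, -2.01 and -1.58, and Cenpf, of the outer kinetochore, by -2.38, -2.74 and -2.47.

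Mitotic kinases and the chromosomal passenger complex time the steps of division. The complex consists of Aurkb, the kinase itself, with Incenp, Birc5 (survivin) and Cdca8 (borealin). All 6 genes fell in each genotype, with median log2 fold changes of -1.85, -1.89 and -1.83 in mosaic, knockout and wild type cultures. Plk1, the polo-like kinase, measured 6.36, 6.87 and 7.4 in mosaic, 6.32, 6.47 and 6.77 in knockout and 6.5, 7.0 and 6.75 in wild type cultures at day 4. At day 0 Plk1 had 9.02, 8.88 and 8.89 in mosaic, 8.95, 8.82 and 8.96 in knockout and 8.93, 8.74 and 8.73 in wild type neurospheres. Log2 fold changes of -2.05 ± 0.19 in mosaic, -2.39 ± 0.19 in knockout and -2.05 ± 0.19 in wild type cultures (SE, n = 3 per group) made its falls the largest of the 6. Cdca8 had 5.04, 5.1 and 5.81 in mosaic, 5.18, 4.91 and 5.27 in knockout and 4.92, 5.39 and 5.41 in wild type cultures at day 4. At day 0 Cdca8 had 7.19, 7.29 and 7.29 in mosaic, 7.1, 7.2 and 7.24 in knockout and 6.98, 7.01 and 7.11 in wild type neurospheres. Only mosaic replicate 3 exceeded every wild type array of that day. Incenp, the scaffold of the complex, showed 5.65, 6.03 and 6.46 in mosaic, 5.45, 5.87 and 5.81 in knockout and 5.65, 5.14 and 5.86 in wild type cultures at day 4. At day 0 Incenp had 7.0, 7.0 and 7.11 in mosaic, 7.47, 7.05 and 7.17 in knockout and 7.16, 7.11 and 7.11 in wild type neurospheres. It changed by -0.99 ± 0.19 in mosaic, -1.52 ± 0.19 in knockout and -1.58 ± 0.19 in wild type cultures, and the mosaic value is the 1 called fall under 2-fold among the 120 tests of 40 genes in 3 genotypes. Aurka, which acts at spindle poles, changed by -1.83, -2.04 and -1.86 in mosaic, knockout and wild type cultures. Aurkb changed by -1.4, -1.74 and -1.49 and Birc5 by -1.86, -1.74 and -1.88.

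Kinesins are the motors that move chromosomes and slide microtubules. All 10 mitotic kinesin genes fell in each genotype, with median log2 fold changes of -1.91, -2.3 and -2.14 in mosaic, knockout and wild type cultures. Kif23, a motor of the central spindle, measured 5.0, 5.7 and 6.34 in mosaic, 5.05, 5.39 and 5.35 in knockout and 4.94, 5.35 and 5.39 in wild type cultures at day 4. At day 0 its values were 8.34, 8.37 and 8.54 in mosaic, 8.59, 8.43 and 8.42 in knockout and 8.38, 8.41 and 8.55 in wild type neurospheres. It changed by -2.74 ± 0.22 in mosaic, -3.22 ± 0.22 in knockout and -3.22 ± 0.22 in wild type cultures (SE, n = 3 per group), the largest mean fall of all 40 genes, and as folds it was lower by 6.69-fold, 9.32-fold and 9.34-fold. Kif18a, which dampens the movements of aligned chromosomes, had 5.39, 6.35 and 6.38 in mosaic, 5.57, 5.41 and 5.37 in knockout and 5.74, 5.68 and 5.81 in wild type cultures at day 4. At day 0 Kif18a had 8.27, 8.54 and 8.24 in mosaic, 8.37, 8.34 and 8.23 in knockout and 8.21, 8.33 and 8.33 in wild type neurospheres. At day 4 its knockout arrays all lay below its wild type arrays, while mosaic replicates 2 and 3 lay above every other array. Kif14, a motor of cytokinesis, had the smallest mean fall of the 10, -1.66 ± 0.21 in mosaic, -2.04 ± 0.21 in knockout and -1.86 ± 0.21 in wild type cultures. Its arrays read 4.72, 5.0 and 5.64 in mosaic, 4.46, 5.21 and 4.78 in knockout and 4.91, 4.52 and 5.04 in wild type cultures at day 4. At day 0 Kif14 had 7.06, 6.57 and 6.72 in mosaic, 6.91, 6.85 and 6.82 in knockout and 6.58, 6.69 and 6.76 in wild type neurospheres. The tetrameric motor Kif11, which pushes spindle poles apart, changed by -2.14, -2.55 and -2.29. The depolymerase Kif2c changed by -2.33, -2.61 and -2.16, and Kif20a and Kif20b, both of cytokinesis, by -1.88, -2.24 and -1.9 and by -1.75, -2.29 and -2.22. Kif15, which shares the work of Kif11, changed by -1.84, -2.25 and -2.05. The chromosome-bound motors Kif4 and Kif22 had -1.78, -2.31 and -2.12, and -1.94, -2.07 and -1.83.

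Spindle assembly factors fell with them, 5 of 5 in each genotype, with median log2 fold changes of -2.31, -2.77 and -2.56 in mosaic, knockout and wild type cultures. Hmmr, a microtubule-bound protein of the spindle poles, measured 4.69, 5.35 and 5.81 in mosaic, 4.48, 5.09 and 5.14 in knockout and 4.92, 5.16 and 5.14 in wild type cultures at day 4. At day 0 Hmmr had 7.86, 7.89 and 7.9 in mosaic, 7.86, 7.82 and 7.65 in knockout and 7.72, 7.71 and 7.83 in wild type neurospheres. Its log2 fold changes were -2.6 ± 0.21 in mosaic, -2.87 ± 0.21 in knockout and -2.68 ± 0.21 in wild type cultures (SE, n = 3 per group), the largest mean fall of the 5. Aspm, a spindle pole protein whose human mutation causes microcephaly, had 5.97, 5.89 and 6.47 in mosaic, 5.35, 5.56 and 5.46 in knockout and 5.43, 5.41 and 5.67 in wild type cultures at day 4. Its 3 mosaic arrays lay above all 6 other arrays of that day. At day 0 Aspm had 8.45, 8.52 and 8.28 in mosaic, 8.46, 8.4 and 8.45 in knockout and 8.18, 8.26 and 8.28 in wild type neurospheres, and its log2 fold changes were -2.31 ± 0.13 in mosaic, -2.98 ± 0.13 in knockout and -2.74 ± 0.13 in wild type cultures. Dlgap5, which stabilises spindle fibres, fell the least of the 5, with log2 fold changes of -1.96 ± 0.13 in mosaic, -2.29 ± 0.13 in knockout and -2.04 ± 0.13 in wild type cultures. Its arrays had 6.4, 6.57 and 6.96 in mosaic, 6.05, 6.26 and 6.5 in knockout and 6.37, 6.4 and 6.36 in wild type cultures at day 4. At day 0 Dlgap5 had 8.68, 8.58 and 8.53 in mosaic, 8.65, 8.59 and 8.43 in knockout and 8.36, 8.4 and 8.49 in wild type neurospheres. Nusap1, which bundles microtubules, changed by -2.4, -2.77 and -2.56 in mosaic, knockout and wild type cultures. Tpx2, the activator of Aurka on the spindle, changed by -2.17, -2.73 and -2.39.

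The 3 genes of the central spindle and cytokinesis fell in each genotype, with median log2 fold changes of -2.4, -2.91 and -2.62 in mosaic, knockout and wild type cultures. Prc1 cross-links the microtubules between separating chromosomes and measured 5.88, 6.85 and 7.33 in mosaic, 6.03, 6.35 and 6.59 in knockout and 6.02, 6.48 and 6.52 in wild type cultures at day 4. At day 0 it had 9.42, 9.48 and 9.52 in mosaic, 9.46, 9.39 and 9.38 in knockout and 9.25, 9.43 and 9.28 in wild type neurospheres, and it changed by -2.79 ± 0.25 in mosaic, -3.09 ± 0.25 in knockout and -2.98 ± 0.25 in wild type cultures (SE, n = 3 per group). Ect2 switches on the small GTPase that drives the contractile ring, and had 6.79, 7.42 and 7.83 in mosaic, 6.69, 6.85 and 6.93 in knockout and 6.62, 7.12 and 7.33 in wild type cultures at day 4. At day 0 Ect2 had 9.64, 9.78 and 9.81 in mosaic, 9.78, 9.76 and 9.65 in knockout and 9.59, 9.59 and 9.73 in wild type neurospheres. That is a change of -2.4 ± 0.2 in mosaic, -2.91 ± 0.2 in knockout and -2.62 ± 0.2 in wild type cultures. Anln, a scaffold of that ring, had 5.38, 6.17 and 6.25 in mosaic, 5.51, 5.5 and 5.69 in knockout and 5.62, 5.79 and 5.69 in wild type cultures at day 4. At day 0 Anln had 7.92, 7.97 and 7.91 in mosaic, 7.92, 7.83 and 7.79 in knockout and 7.6, 7.87 and 7.82 in wild type neurospheres. It fell the least of the 3, with -2.0 ± 0.16 in mosaic, -2.28 ± 0.16 in knockout and -2.06 ± 0.16 in wild type cultures. In all 3 genes mosaic replicates 2 and 3 held the highest 2 places at day 4.

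Mki67, the gene of the Ki-67 antigen that coats mitotic chromosomes, measured 7.55, 8.22 and 8.69 in mosaic, 7.13, 7.49 and 7.86 in knockout and 7.6, 7.78 and 7.96 in wild type cultures at day 4. At day 0 its arrays read 10.29, 10.36 and 10.28 in mosaic, 10.28, 10.42 and 10.24 in knockout and 10.18, 10.3 and 10.24 in wild type neurospheres. It changed by -2.16 ± 0.21 in mosaic, -2.82 ± 0.21 in knockout and -2.46 ± 0.21 in wild type cultures (SE, n = 3 per group). Top2a, the topoisomerase that untangles sister chromatids, had 6.23, 7.35 and 7.79 in mosaic, 6.49, 6.73 and 6.83 in knockout and 6.7, 7.0 and 7.19 in wild type cultures at day 4. At day 0 Top2a had 9.4, 9.44 and 9.33 in mosaic, 9.52, 9.44 and 9.26 in knockout and 9.31, 9.33 and 9.34 in wild type neurospheres. The changes were -2.26 ± 0.26 in mosaic, -2.72 ± 0.26 in knockout and -2.36 ± 0.26 in wild type cultures. Both were called in each genotype, and in both the mosaic arrays of day 4 held the highest value of the 9. Mosaic replicate 1 had the lowest Top2a value of that day.

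**Figure D3:**
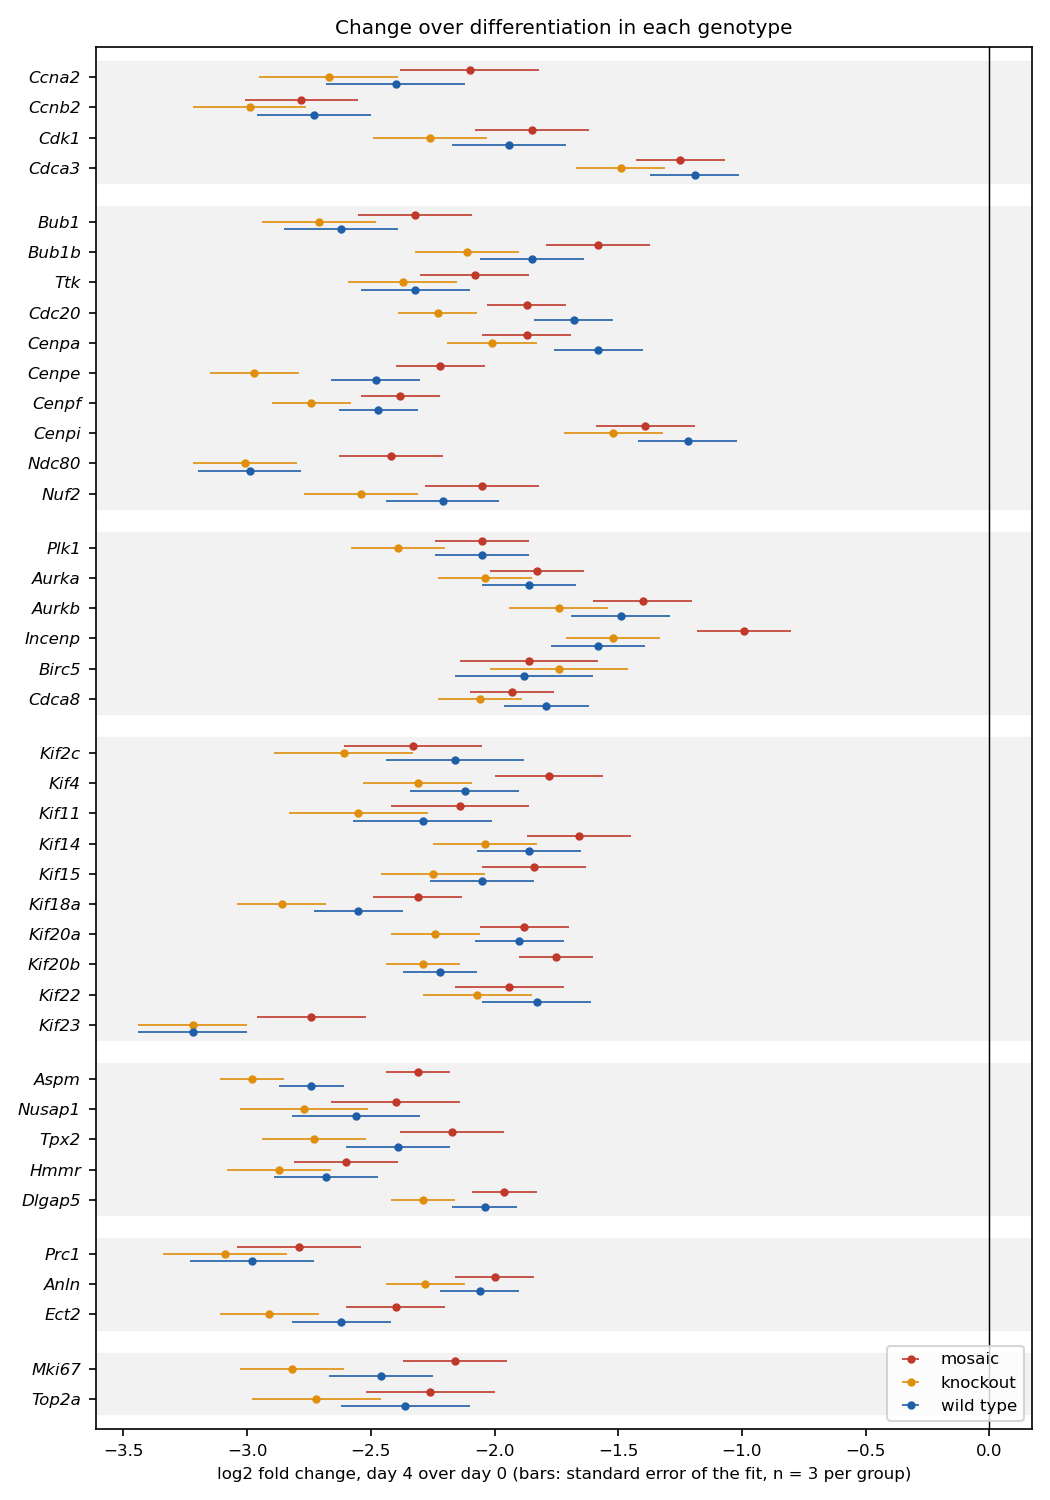
Log2 fold change from the fit, day 4 over day 0 (horizontal axis), of each gene (rows, grouped by role) in mosaic, knockout and wild type cultures, with the standard error as bar (n = 3 per group). All 120 points lie left of 0, between -3.22 and -0.99.

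Other genes of the pathway, taken from lists by function, fell in unequal proportion. Among other mitotic kinases, phosphatases and related genes 25, 25 and 24 of 25 tested were called lower in mosaic, knockout and wild type cultures and 0 were called higher. Of all genes 14.4%, 15% and 17.2% were called higher. Cks2, a subunit that docks on Cdk1, changed by -2.2, -2.78 and -2.62, and Cdc25c, the phosphatase that activates Cdk1, by -2.09, -2.58 and -2.54. Of the other kinetochore genes 21, 21 and 22 of 26 were called lower and 2, 0 and 1 higher. Ska3 and Knl1, both of the outer kinetochore, changed by -2.1, -2.63 and -2.65, and by -2.14, -2.63 and -2.52, while Cenpb, which binds centromeric DNA, had 0.5, 0.31 and 0.41 (adjusted p = 0.0121, 0.106 and 0.0309 in limma) and the checkpoint gene Mad1l1 0.25, 0.17 and 0.04, called in mosaic cultures. Condensin, cohesin and separase genes were called lower in 16, 16 and 17 of 19 cases and higher in 0, led by the condensin subunit Smc4 (-1.88, -2.14 and -2.01) and Sgo1 (-1.72, -1.95 and -1.89), which protects cohesin at centromeres.

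The anaphase promoting complex is the ubiquitin ligase that ends mitosis. Of it and its partners 5, 4 and 6 of 18 were called lower and 1, 1 and 2 higher in mosaic, knockout and wild type cultures. The partners Ube2c, which hands it ubiquitin, and the checkpoint gene Mad2l1 changed by -1.84, -2.31 and -1.88, and by -1.44, -1.89 and -1.78. Of all genes tested 11.9%, 12.4% and 16.3% were called lower and 14.4%, 15% and 17.2% higher. Among its 12 core subunits tested, Cdc27 fell in knockout and wild type cultures (-0.23, -0.42 and -0.44 in mosaic, knockout and wild type cultures), Cdc23 fell in wild type cultures (-0.03, -0.05 and -0.24), and Anapc13 rose in each genotype (0.23, 0.27 and 0.3). The other 9 were called in no genotype, with log2 fold changes from -0.13 to 0.26. Mad2l1bp, a silencer of the checkpoint, had 0.08, -0.08 and 0.3 and was called in wild type cultures. Cdc27 and Cdc23 were named after their values were seen. Among regulators of these genes 8, 8 and 7 of 18 were called lower and 3, 3 and 2 higher, beside the same shares of all genes. Foxm1, the activator of G2 genes, changed by -1.47, -1.44 and -1.23, and E2f8, a repressor of E2F targets, by -1.29, -1.59 and -1.42. Tfdp1, the partner of E2F proteins, rose (0.63, 0.58 and 0.34), and E2f3 had 0.58, 0.42 and 0.15, called in mosaic and knockout cultures. Mybl2, the gene of B-Myb, changed by -0.34, -0.65 and -0.11 and was called in mosaic and knockout cultures. Of the 5 MuvB subunits Lin9 fell in each genotype (-0.79, -1.04 and -0.94), Lin54 had -0.12, -0.29 and -0.31 and was called in wild type cultures, and Lin37 rose in each (0.31, 0.34 and 0.33). Lin52 (0.19, 0.09 and 0.18) and Rbbp4 (0.08, 0.03 and 0.06) were called in no genotype. Mybl2 and the MuvB subunits were named for their place in the complex and not for the size of their change. Without mosaic day 4 replicate 3 the mosaic counts of these 5 lists were 25 lower of 25, 21 of 26, 14 of 19, 5 of 18 and 8 of 18, and 0, 0, 0, 1 and 3 were called higher, beside 10.6% and 12.6% of all genes. Differences between these lists were not tested.

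On single arrays the mitosis genes were even at day 0 and uneven at day 4. The mean over the 40 genes was 5.73, 6.36 and 6.79 on the mosaic arrays of day 4 (replicates 1, 2 and 3), 5.67, 5.95 and 6.07 on the knockout arrays and 5.86, 6.06 and 6.17 on the wild type arrays. At day 0 it was 8.32, 8.38 and 8.31 in mosaic, 8.38, 8.32 and 8.26 in knockout and 8.13, 8.25 and 8.27 in wild type neurospheres. As group means these are 6.30 ± 0.53 in mosaic, 5.90 ± 0.20 in knockout and 6.03 ± 0.15 in wild type cultures at day 4 (SD, n = 3), and 8.34 ± 0.03 in mosaic, 8.32 ± 0.06 in knockout and 8.22 ± 0.08 in wild type neurospheres at day 0. The mosaic arrays of day 4 thus spanned 1.06, a span that took in all 6 other arrays of that day except knockout replicate 1. The median SD of a single mitosis gene was 0.56 in mosaic, 0.26 in knockout and 0.19 in wild type cultures at day 4, beside 0.15, 0.13 and 0.13 for all genes tested. At day 0 it was 0.06, 0.10 and 0.09.

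Mosaic replicate 3 had the highest value of the 9 day 4 arrays for 38 of 40 genes, and it was the highest for 15.7% of all genes tested. The exceptions were Aurka, highest on knockout replicate 3, and Cenpa, highest on wild type replicate 3. Knockout replicate 1 was the lowest for 22 genes (against 13.8% of all genes), mosaic replicate 1 for 9 (8.4%) and wild type replicate 1 for 6 (16.4%). Within its own group at day 4, replicate 1 was the lowest for 39 genes in mosaic, 33 in knockout and 28 in wild type cultures. Of all genes it was the lowest for 36%, 38.1% and 35.2%. Replicate 3 was the highest for 40, 24 and 26 (31.8%, 32.8% and 32.2% of all genes). At day 0 replicate 1 was the lowest for 18 genes in mosaic, 4 in knockout and 29 in wild type cultures (34.6%, 31.8% and 36.4% of all genes). The mean over the 40 genes rose from replicate 1 to replicate 3 in each genotype at day 4, and at day 0 only in wild type neurospheres. The replicate numbers thus did not part the arrays alike on both days. Whether day 4 arrays of the same number share a batch was not tested. What a replicate number stands for is not given in the sources used here.

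Values of these genes varied together from array to array. Over the 9 day 4 arrays the 780 pairs of genes had a median Pearson r of 0.80 (range 0.17 to 0.98), and over the 9 day 0 arrays of 0.46 (-0.57 to 0.97). These are descriptions, since the pairs share the same arrays, genotypes and hybridisations. Against the mean of the other genes at day 4, Tpx2 had the highest r (0.99) and Cdca3 the lowest (0.53).

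Markers of cell types differed between the same day 4 arrays. The mean log2 level of the 10 neuronal markers was 8.02, 7.77 and 7.38 on mosaic replicates 1, 2 and 3, 8.12, 7.86 and 7.59 on knockout arrays and 7.67, 7.68 and 7.75 on wild type arrays. Mosaic replicate 3 had the lowest of these and knockout replicate 1 the highest. For the 9 oligodendrocyte markers the means were 9.69, 9.58 and 9.26 in mosaic, 9.1, 9.01 and 9.49 in knockout and 9.69, 9.44 and 9.11 in wild type cultures. The 12 neural stem and progenitor markers had 9.32, 9.36 and 9.2 in mosaic, 9.37, 9.37 and 9.37 in knockout and 9.28, 9.34 and 9.3 in wild type cultures. The 8 astrocyte markers had 9.37, 9.73 and 9.76 in mosaic, 9.44, 9.51 and 9.67 in knockout and 9.52, 9.63 and 9.55 in wild type cultures, the lowest of the 9 on mosaic replicate 1 and the highest on mosaic replicate 3. Summed on the linear scale they ran from 10209 to 12278 in mosaic, 10656 to 12199 in knockout and 11118 to 11878 in wild type cultures. The neuronal markers summed on the linear scale ran from 4359 to 5766 in mosaic, 4705 to 6378 in knockout and 4846 to 5119 in wild type cultures. The 7 microglial markers summed to 177 to 200 in mosaic, 194 to 209 in knockout and 191 to 215 in wild type cultures. Mosaic replicate 3 also had the lowest Pcdh19 value of the 9, as given above. The part of cell composition in the spread of the mitosis genes was not tested.

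**Figure D4:**
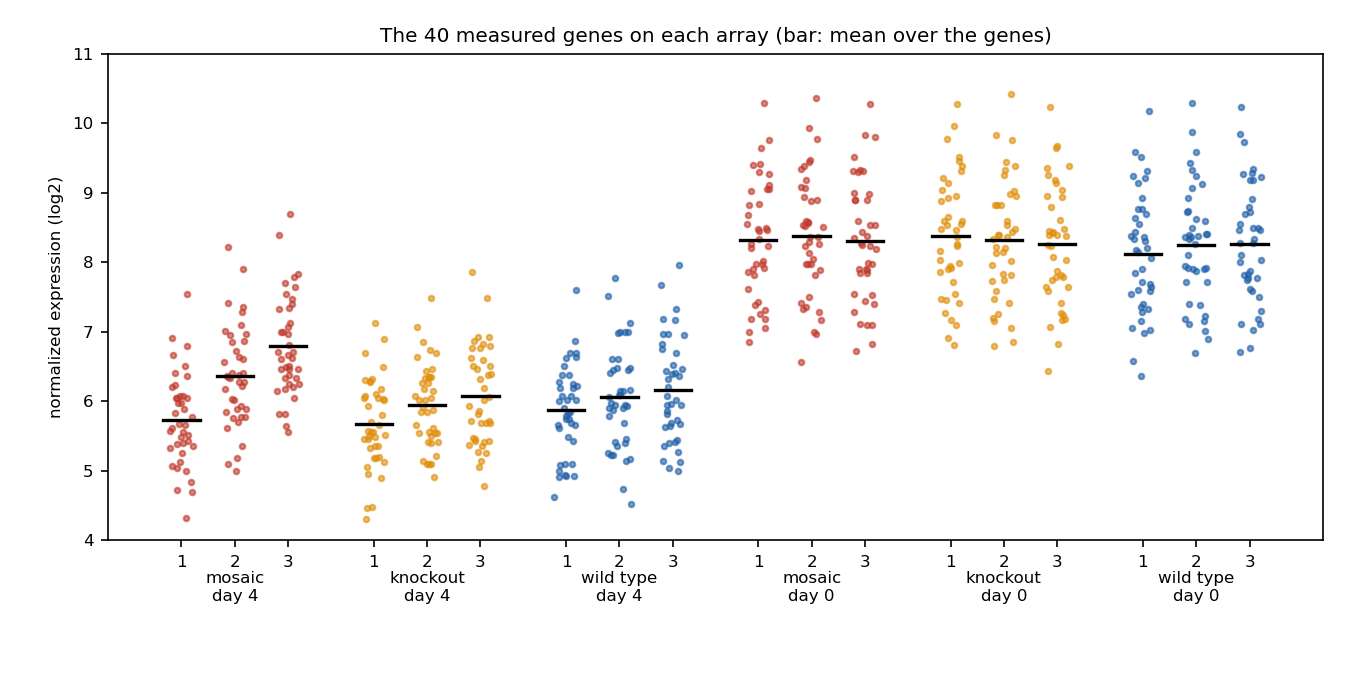
Normalized expression (log2, vertical axis) of the 40 genes on each array (points), with the mean over the genes as a black bar, for the 3 replicates of each genotype at day 4 (left) and day 0 (right). The bars lie between 8.13 and 8.38 on all 9 day 0 arrays and between 5.67 and 6.79 on the day 4 arrays.

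Whether the genotypes differ at day 4 in what remains of mitotic expression was asked in 3 comparisons, which share their arrays. In mosaic against wild type cultures 0 of 40 genes were called (0% of all genes), with a median log2 fold change of 0.29. The sign was positive for 37 of 40, against 51.4% of all genes. Since these genes varied together from array to array, their signs are not separate observations, here and in the comparisons below. At an unadjusted p under 0.05, 5 genes were higher, beside 7.88% of all genes, and single arrays moved both counts. Without mosaic replicate 3 there were 23 positive signs of 40 and 2 such genes, Kif20b and Aspm (4.69% of all genes), and without mosaic replicate 1 there were 40 and 33 (11.7%). With all arrays the 5 were Bub1 (0.54 ± 0.23, SE), Ndc80 (0.57 ± 0.21), Incenp (0.5 ± 0.19), Kif20b (0.54 ± 0.15) and Aspm (0.61 ± 0.13). Aspm had the smallest adjusted p in limma of the 40, 0.12, with a 95% interval of 0.34 to 0.87. The arrays of Aspm and Kif20b did not overlap between mosaic and wild type cultures, as for 9.62% of all genes. Kif20b read 5.42, 5.62 and 6.05 in mosaic, 5.45, 5.14 and 5.05 in knockout and 4.99, 5.22 and 5.27 in wild type cultures.

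Mosaic against knockout cultures at day 4 gave 0 called genes of 40 as well (0% of all genes). The 40 log2 fold changes were all positive, with a median of 0.41, where 50.8% of all genes were positive. At an unadjusted p under 0.05, 15 of the 40 were higher, beside 3.18% of all genes. Without mosaic replicate 3 there were 32 positive signs and 4 such genes, Cenpe, Kif18a, Kif20b and Aspm (2.33% of all genes). Their number was 6 without knockout replicate 1 (3.73%) and 8 without mosaic replicate 2 (3.11%). It was 23 without knockout replicate 3 (3.46%) and 34 without mosaic replicate 1 (6.22%). With all arrays the smallest p values belonged to Aspm (0.65 ± 0.13, adjusted p = 0.544 in limma), Cenpe (0.67 ± 0.18, adjusted p = 0.762) and Kif20b (0.49 ± 0.15, adjusted p = 0.762). Only Aspm had mosaic arrays that all lay above the knockout arrays, as 4.24% of all genes did. For Mki67 the difference was 0.66 ± 0.21, with a 95% interval of 0.21 to 1.11.

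In knockout against wild type cultures at day 4, 0 of 40 genes were called (0% of all genes). Pcdh19, the gene that knockout cells lack, was not called either. The absence of calls is thus no evidence that the genotypes are alike. Of the 40 log2 fold changes 32 were negative and 8 positive, with a median of -0.16, where 51.9% of all genes were positive. At an unadjusted p under 0.05, 1 gene was lower, Cenpe (-0.39 ± 0.18, adjusted p = 0.389 in limma), beside 7.33% of all genes. That number ran from 0 to 3 over the 6 arrays left out in turn, beside 4.56% to 8.02% of all genes. It was 3 (Cdc20, Cenpa and Cenpe) without wild type replicate 1, beside 5.01% of all genes. Knockout arrays lay below all wild type arrays for Cenpe and Kif18a (-0.29 ± 0.18), as for 8.27% of all genes. Cdc20 had -0.34 ± 0.16 (95% interval -0.68 to 0.01). Of the 40 intervals, the lowest bound was -1.0 and the highest 0.73. Their widths rest on the spread per gene that the fit takes from the arrays of every group. The median SD of a mitosis gene at day 4 was 0.56 in mosaic, 0.26 in knockout and 0.19 in wild type cultures. The intervals thus do not show the precision of the knockout and wild type arrays alone.

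The mosaic differences at day 4 moved with single arrays. Without mosaic replicate 3 the median over the 40 genes became 0.03 against wild type and 0.14 against knockout, and 0 genes were called in either. Without mosaic replicate 1 it became 0.60 and 0.69. In that fit 11 of 40 genes were called higher than wild type, where 0.726% of all genes were, and 6 of 40 higher than knockout, where 0.0473% were. The 11 were Bub1, Cenpe, Ndc80, Nuf2, Kif15, Kif18a, Kif20b, Kif23, Aspm, Prc1 and Anln, with log2 fold changes of 0.51 to 0.85. The 6 were Cenpe, Nuf2, Kif15, Kif18a, Anln and Top2a, with 0.64 to 0.99. For Aspm against wild type the adjusted p was 0.0388 in limma without mosaic replicate 1, and between 0.0388 and 0.315 over the 6 arrays left out in turn. Leaving out knockout replicate 1 left a median of -0.01 for knockout against wild type.

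**Figure D5:**
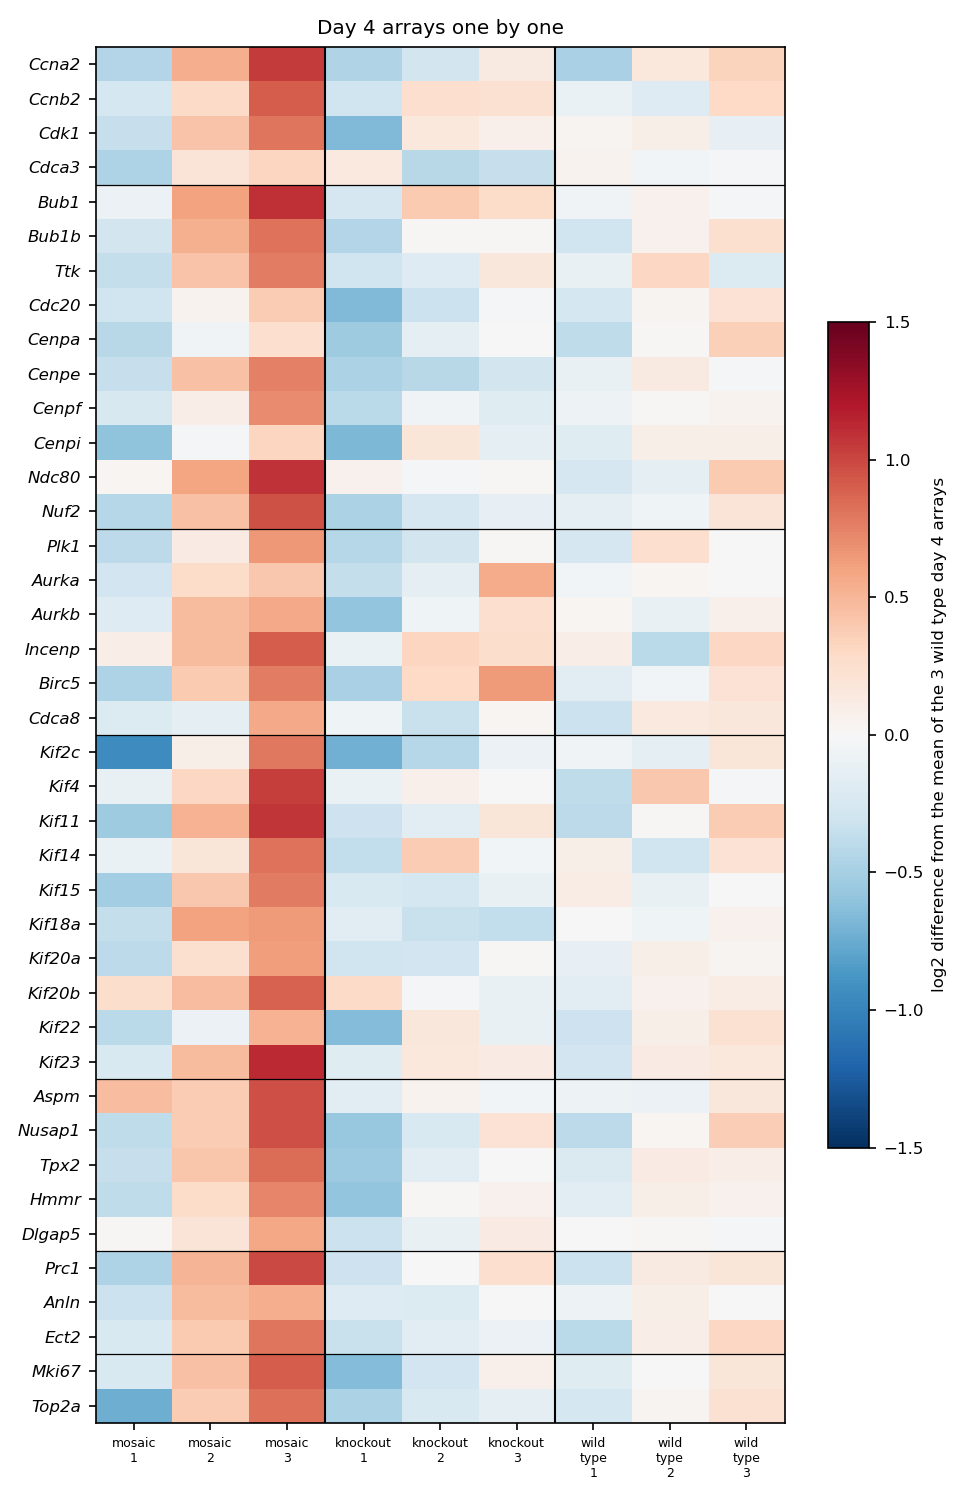
Difference of each day 4 array (columns, replicates 1 to 3 of mosaic, knockout and wild type cultures) from the mean of the 3 wild type day 4 arrays (colour, log2), for the 40 genes (rows, lines between roles). The column of mosaic replicate 3 is red throughout, while mosaic replicate 1 and knockout replicate 1 are mostly blue.

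At day 0 the genotypes were closer in their medians. The fit takes 1 spread per gene from the arrays of every group, the mosaic cultures of day 4 included. There the median SD of a mitosis gene was 0.56. In mosaic, knockout and wild type neurospheres at day 0 it was 0.06, 0.1 and 0.09. The median SE of these genes in the day 0 comparisons was 0.21, above those SDs. Counts of 0 in the tests below are thus no evidence that the genotypes are alike at day 0. Mosaic, set against wild type neurospheres, had 0 of 40 genes called (0% of all genes), 0 at an unadjusted p under 0.05 (all genes, 1.7% lower and 2.59% higher) and a median log2 fold change of 0.12. Knockout against wild type likewise gave 0 calls (0%), 0 at an unadjusted p under 0.05 (all genes, 1.49% lower and 2.11% higher) and a median of 0.10. All mosaic arrays lay above all wild type arrays for 11 of 40 genes (all genes, 5.66%), and all knockout arrays did for 7, Cdc20, Cenpa, Aurka, Kif11, Kif14, Aspm and Tpx2 (all genes, 4.76%). In each of these comparisons 38 of 40 log2 fold changes were positive (all genes, 51.3% and 50.4%). Wild type replicate 1 was the lowest of the 9 day 0 arrays for 24 genes (all genes, 12.2%). Without that array the medians were 0.07 and 0.08. Mosaic against knockout gave 0 calls (0%), 0 at an unadjusted p under 0.05 (all genes, 1.87% lower and 2.37% higher) and a median of 0.02, with mosaic arrays all above knockout arrays for 3 of 40, Birc5, Kif2c and Hmmr (all genes, 5.14%).

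The test of whether differentiation itself differed between genotypes compares the falls. Between mosaic and wild type cultures 0 of 40 genes were called (0% of all genes), and the median difference of the log2 fold changes was 0.16. At an unadjusted p under 0.05 there were 3, Incenp (0.58 ± 0.27, SE), Kif20b (0.47 ± 0.21) and Aspm (0.43 ± 0.18), each a smaller fall in mosaic cultures, beside 5.41% of all genes. Between mosaic and knockout cultures 0 were called (0%), the median was 0.38, and 5 had an unadjusted p under 0.05 beside 1.97% of all genes. They were Cenpe (0.75 ± 0.26), Kif18a (0.56 ± 0.26), Kif20b (0.54 ± 0.21), Aspm (0.67 ± 0.18) and Mki67 (0.66 ± 0.3). Between knockout and wild type cultures 0 were called (0%), the median was -0.26, and Cdc20 alone had an unadjusted p under 0.05 (-0.55 ± 0.23, beside 5.72% of all genes). Without mosaic day 4 replicate 1, Cenpe was called between mosaic and knockout cultures (1.07), as was 0.00526% of all genes. Without mosaic day 4 replicate 3 the 2 mosaic medians were -0.10 against wild type and 0.12 against knockout. The counts at an unadjusted p under 0.05 moved as well. Against wild type 0 genes were higher without mosaic day 4 replicate 3 (4.52% of all genes) and 20 without replicate 1 (7.98%). Against knockout they were 2 (1.9%) and 32 (3.59%). Over every array left out in turn the counts of higher genes ran from 0 to 20 against wild type (3.81% to 7.98% of all genes). Against knockout the counts ran from 2 to 32 (1.84% to 3.59%). Without mosaic day 4 replicate 3, 1 gene, Cdca8, was lower against wild type (5.44% of all genes). For knockout against wild type the median was -0.15 without knockout day 4 replicate 1, with 32 of 40 negative, and no gene then had an unadjusted p under 0.05.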

How the data were processed

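Expression was measured on 18 arrays. The deposited values are normalized log2 values per probe set, as read from the values (0.722 to 13.97, array medians 4.85 to 4.99), and how the authors normalized them, corrected background or set the log base is not given in the sources used here. Of 41345 probe sets, 23521 carried 1 gene symbol in the platform annotation, 1814 several and 16010 none. Each of 22180 genes was taken from its single-symbol probe set with the highest mean, and 19016 lay above the 25th percentile of the array on at least 3 arrays. With the 6 groups as factor levels, all 18 arrays entered 1 linear model in limma 3.58.1 (lmFit and eBayes, statmod 1.5.0, R 4.3.3; 12 residual and 4.36 prior degrees of freedom). Two-sided p-values of 12 contrasts were adjusted over all genes with the Benjamini-Hochberg method, and the threshold was 0.05. Errors of log2 fold changes are standard errors of the fit, which takes 1 spread per gene from all 18 arrays, and errors of means are SDs. The model was tested on simulated data. Members and gene lists were chosen with earlier results of these data known. Values of every array are given for the 2 genes with the largest and the 1 with the smallest mean fall in each role, and of other lists the 2 called genes that changed most in each direction are named. Replicate numbers were checked for pairing over all genes tested and did not pair the arrays there. The mitosis genes alone were not checked in this way. Promoter windows come from RefSeq (GRCm38.p6).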

Additional observations from a re-analysis of the deposited data

How the results depend on the processing

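The 40 calls in each of the 3 differentiation comparisons held after rescaling the arrays (by quantiles or to 1 median) and after changing the filter (none, or the 50th percentile). Averaging the probe sets of a gene left the values of the 40 genes as they were, since each had 1, and is no check of their changes. The calls also held with array weights, with a robust variance trend, when only the 2 groups concerned were fitted and at a threshold of 0.01. They held as well when an estimated change of at least 1.5-fold was also required, and with each array of those groups left out in turn. Of 2040 refitted changes of single genes, those with averaged probe sets included, none lost its call or turned. Over all genes tested the replicate number did not pair the arrays (correlation of deviations -0.15 to 0.17 between arrays of the same number, under 0.1 for at least 1 pair in each comparison). The mitosis genes alone did share an order of replicates at day 4, as given above. With the replicate block 40, 40 and 40 genes were called over differentiation and 0 in each other comparison. Leaving out single arrays moved the mosaic comparisons. The count of called genes ran from 0 to 11 in mosaic against wild type at day 4, from 0 to 6 in mosaic against knockout at day 4, and from 0 to 1 for the difference of differentiation between mosaic and knockout, in each case highest without mosaic day 4 replicate 1. That difference had medians of 0.12 to 0.70, and the one between mosaic and wild type of -0.10 to 0.50, lowest without mosaic day 4 replicate 3 and highest without replicate 1. The cause was not tested. Quantile normalization shifted the median of all genes in wild type differentiation to 0.119, against 0.087 without it, and the median of the mitosis genes there stayed between -2.24 and -2.11 over all settings and arrays left out. No background level was at hand, so how far dim day 4 signals understate the falls is unknown.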

Other observations

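Of the genes of DNA replication and S phase, a separate list of 32 genes of which 29 were tested, 18, 18 and 17 of 29 were called lower at day 4 than at day 0 in mosaic, knockout and wild type cultures and 0 were called higher, where 11.9%, 12.4% and 16.3% of all genes were called lower and 14.4%, 15% and 17.2% higher. Without mosaic day 4 replicate 3 the mosaic count was 20 and the mosaic median -0.57. With all arrays the median log2 fold changes of this list were -0.47, -0.66 and -0.54, beside -2.05, -2.38 and -2.19 for the 40 mitosis genes. The difference between the lists was not tested. Rrm2, a subunit of the enzyme that makes deoxyribonucleotides, changed by -1.36, -1.55 and -1.56, and Pole, a replicative polymerase, by -1.06, -1.1 and -1.19. Pcna, the sliding clamp of replication, had -0.1, -0.13 and -0.12 and was called in no genotype. It was named after its values were seen. On single arrays of day 4 the list averaged 6.21, 6.53 and 6.68 on mosaic replicates 1, 2 and 3, 6.19, 6.34 and 6.38 on knockout arrays and 6.27, 6.43 and 6.39 on wild type arrays, so mosaic replicate 3 was the highest here too.

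The RefSeq windows of 26 of these replication genes held a CHR form in 6 cases (23.1%) and an E2F-like form in 17 (65.4%). In the 35 windows of mitosis genes the shares were 80% and 17.1%, and over all 27025 genes with a window 21.7% and 7.79%. A CCAAT box occurred at least 2 times in 18 of the 35 windows of mitosis genes (51.4%), in 9 of the 26 windows of replication genes (34.6%) and in 13.3% of all. These shares describe letters in a window and were not tested.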
